A study of Homo sapiens with 2 samples.

Results

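The genes described here are 35 reported direct targets of the microRNA miR-31 that act in signalling, transcription, adhesion and RNA binding, taken from a given list that leaves out the radixin, integrin, Spred and Sprouty, ETS and cell cycle targets. The rule names them and uses no measured value, although the list was drawn up with earlier results of these arrays known. Every probe set that the platform annotation pairs with exactly that symbol was used. Of the 35 genes, 33 had at least 1 such probe set, and 31 were compared among 11792 genes in all. RASA1, which switches off RAS, and BAP1, a nuclear deubiquitinase, had no probe set with exactly that symbol and were not analysed here.

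The series asked which genes differ when miR-31 is over-expressed in U251, an established human glioma cell line. It holds 1 Affymetrix HG-U133_Plus_2 array of U251 cells transfected with a control and 1 array of U251 cells transfected with miR-31, both from cells grown in DMEM with serum. The labels say neither which construct was transfected nor how long before harvest. With 1 array per group there is no replicate spread, so no p-value is given and each difference is between 2 RNA samples.

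A microRNA is a short RNA loaded into an Argonaute protein. Bases 2 to 8 of it, called the seed, pair with complementary stretches that lie mostly in the 3' untranslated regions of messenger RNAs, and this lowers the stability or the translation of those messages. An array reads the messenger RNA level only, so a target held back at translation alone would show no difference here. In other tumours miR-31 has been described both as a suppressor of invasion and as a growth-promoting microRNA, and the genes below include targets cited for each role.

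The mature sequence shows what every listed target is reported to pair with. It is given 5' to 3' as RefSeq has it, with the seed in capitals, and it lies on the minus strand of GRCh38.p14 at chr9:21512158-21512178.
hsa-miR-31-5p: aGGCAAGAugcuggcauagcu
The hairpin it is cut from spans chr9:21512115-21512185 on the same strand and is shown to place the mature strand, in capitals, on its 5' arm.
MIR31 hairpin: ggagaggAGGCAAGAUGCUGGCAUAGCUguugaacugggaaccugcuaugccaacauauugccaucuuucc
Of 2370 mature human microRNA names in the RefSeq table, miR-31-5p was the only one with these bases 2 to 8. Over the shorter stretch of bases 2 to 7 it shared its sequence with 1 other, whose line is given to show the base at which they part.
hsa-miR-6809-5p: uGGCAAGGaaagaagaggauca
The match of the seed in a messenger RNA reads UCUUGCC, and whether each listed gene holds it was not examined. The arrays do not read mature miR-31. Its host transcript MIR31HG had an intensity of 245 on the control array and 495 on the miR-31 array.

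Intensities are linear values that the authors deposited after scaling each array to a common level. The ratio of a probe set is log2(intensity + 16) on the miR-31 array less that on the control array, so a value below 0 means lower with miR-31, and the added 16 understates differences of dim genes. A gene was compared where at least 1 of its probe sets reached a minimum level, set at the median over probe sets and equal to an intensity of 62.6 averaged over both arrays. The brightest such probe set stands for the gene, the others are given beside it, and calls were made at 2-fold, while higher or lower without a fold gives only the sign of a ratio. Values of paralogues and partners are those of their brightest probe set unless a range is given. Levels of different genes are not compared with each other, because each probe set has its own brightness.

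As a group the 31 genes were a little lower on the miR-31 array when read on their brightest probe sets, and few lay far from 0. Their median log2 ratio was -0.12, against 0.03 over all genes. Read on each gene's highest probe set, the median was 0.13, against 0.16 over all genes. On the brightest probe sets the middle of the list ran from -0.40 to 0.23 between its quartiles, where all genes ran from -0.22 to 0.31. Of the 31 genes, 19 had a ratio below 0 (61.3%) and 12 above, while 46.8% of all genes had a ratio below 0. KHDRBS3, STK40 and MMP16 were at least 2-fold lower, which is 3 of 31 beside 1.58% of all genes. No listed gene was at least 2-fold higher on its brightest probe set, beside 3.74% of all genes. At 1.5-fold, 4 were lower and 4 higher, where 6.72% and 11.7% of all genes were. SOX4, NUMB, CREG1 and HOXC13 had the highest ratios, between 0.74 and 0.85, and are the 4 higher at 1.5-fold. NUMB passed the level minimum through its miR-31 value, so its place among them adds little.

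**Figure D1:**
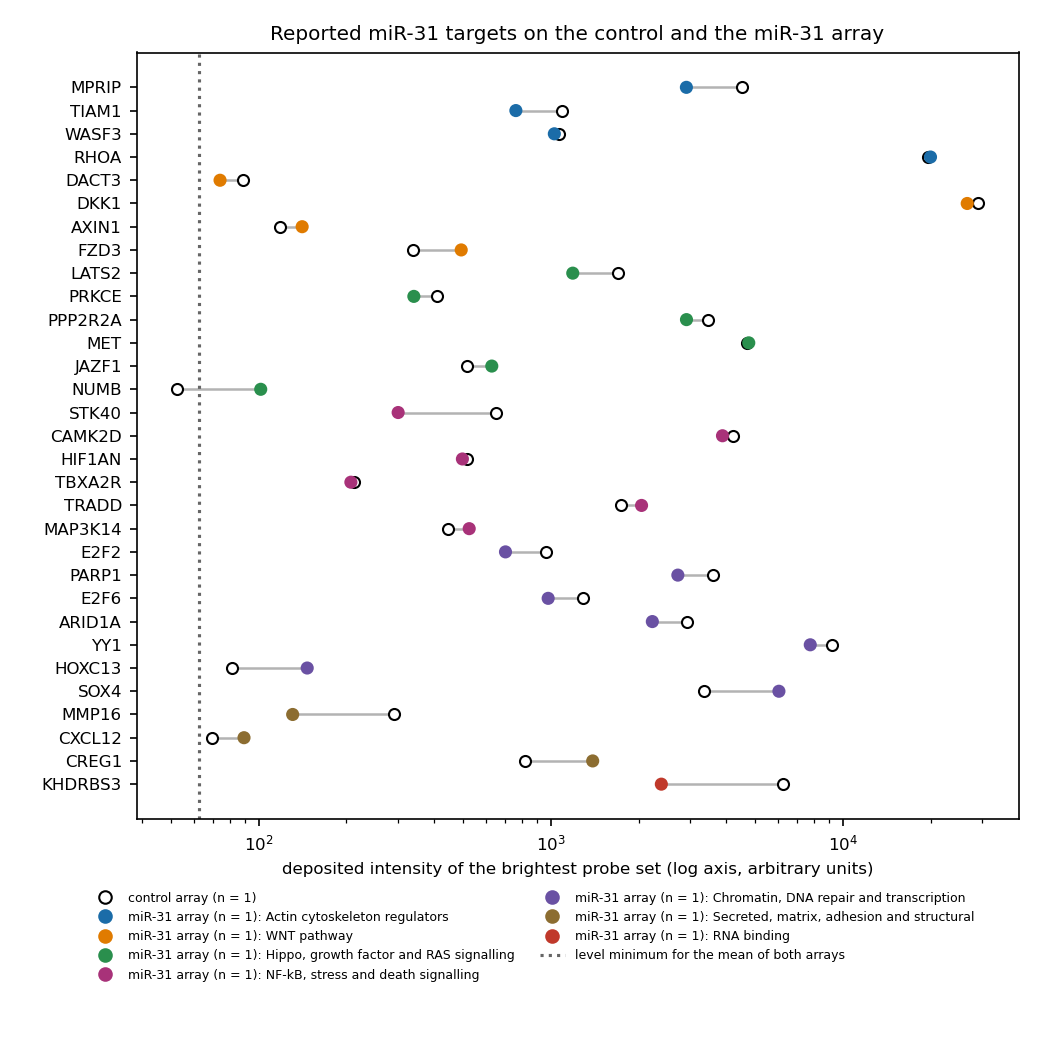
Deposited intensity (log axis) of the brightest probe set of each of the 31 genes, with open circles for the control array and filled circles, coloured by role, for the miR-31 array, 1 array each. KHDRBS3 (6243 and 2394), STK40 and MMP16 have the longest lines to the left, and the dotted line marks the level minimum of 62.6.

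Brightness sets how far a single ratio can be read. Among the dimmest 2948 genes, with mean levels between 62.6 and 261, the robust SD of log2 ratios was 0.56, and 2.41% were 2-fold lower or more and 7.29% 2-fold higher or more. Among the brightest 2948, above 2170, the robust SD was 0.29 and the shares were 1.19% and 1.26%. MMP16, NUMB, HOXC13, CXCL12, AXIN1, DACT3 and TBXA2R were among the dimmest. KHDRBS3, SOX4 and MPRIP were among the brightest. As a second gauge, the SD of one ratio computed from 3142 genes with exactly 2 kept probe sets was 0.336. It holds disagreement between probe sets only and no difference between cultures.

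**Figure D2:**
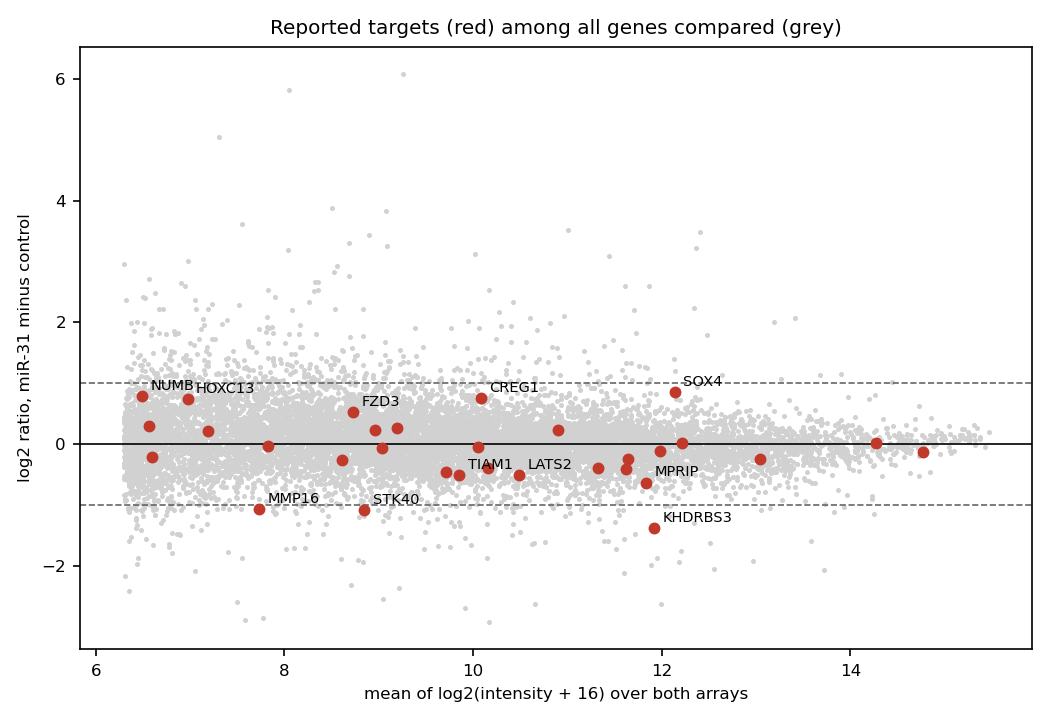
Log2 ratio, miR-31 minus control, against the mean of log2(intensity + 16) over both arrays for all 11792 genes (grey) and the 31 reported targets (red, named where the ratio is at least 0.5 from 0). KHDRBS3 lies below the dashed 2-fold line at a level where few grey points do, whereas STK40 and MMP16 lie just past it at lower levels, and SOX4 lies just inside the upper line.

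KHDRBS3, an RNA-binding protein of the STAR family that regulates splicing, was the listed gene with the lowest ratio. Its brightest probe set had an intensity of 6243 on the control array and 2394 on the miR-31 array, a ratio of -1.38 or 2.6-fold lower, and only 68 of 11792 genes had a lower one. The other probe set had 436 and 177, a ratio of -1.23. In a bulk RNA sample, less RNA per cell and fewer cells that hold it cannot be told apart. Both probe sets passed 2-fold the same way, and the brighter one, named _s_at (a suffix for probe sets that can read more than 1 transcript), had -1.34 both after quantile normalization and after a loess correction for level. Of the related RNA-binding genes, KHDRBS1 had 8827 and 9352 (0.08), with 3 kept probe sets between 0.08 and 0.54. QKI had 11668 and 11474 (-0.02) on its brightest probe set, but its 10 kept probe sets ran from -1.69 to 0.53, so its lowest lay under both of KHDRBS3.

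The regulators of the actin cytoskeleton, which set cell shape and movement, had ratios below 0 in 3 of 4 cases, beside 46.8% of all genes, and none reached 2-fold. MPRIP, a scaffold that brings myosin phosphatase to actin and RHOA, had 4527 on the control array and 2916 on the miR-31 array, a ratio of -0.63. Its 4 other kept probe sets had ratios of -0.74, -0.84, -0.55 and -0.06, so all 5 lay below 0. The probe set under the level minimum read 10.2 and 4.68 (-0.34), values that cannot be told from background. Its 2 brightest are named _x_at, a suffix for probes that can pair with unrelated transcripts. TIAM1, an exchange factor that activates RAC1, had 1090 and 760, a ratio of -0.51, and its second probe set had 87.6 and 45.1, a ratio of -0.76. That second one passed the level minimum through its control value, so its direction adds little.

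RHOA itself, the small GTPase that drives actomyosin contraction, was level between the arrays. It had 19636 and 19976 (ratio 0.02) on its brightest probe set and 7664 and 8724 (0.19) on the second. Another probe set read 15.2 and 1.86, far under the level minimum. WASF3, a subunit of the WAVE complex that starts branched actin filaments, had 1065 and 1030, a ratio of -0.05. The ratios of RHOA and WASF3 were smaller than the gauge of 0.336. Of their relatives, RHOC had 0.02, RHOB 0.28 and WASF2 -0.06, and TIAM2, the paralogue of TIAM1, had 0.21.

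The WNT genes lay on both sides of 0. DKK1, a secreted inhibitor of the WNT co-receptors, had 29143 on the control array and 26682 on the miR-31 array, a ratio of -0.13. DACT3, an antagonist of Dishevelled, had 88.3 and 73.8 (-0.22), and its dimmer probe set had 16.6 and 34.5 (0.63). AXIN1, the scaffold of the complex that destroys beta-catenin, had 119 and 141 (0.22). None of these 3 inhibitors differed by more than the gauge on its brightest probe set.

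FZD3, a WNT receptor of the Frizzled family, was higher on 3 of its 4 probe sets. They had 337 and 494 (0.53), 147 and 311 (just past 2-fold), 121 and 156 (0.33), and 145 and 128 (-0.15). The lowest and highest of these were 1.15 apart. FZD6, the nearest Frizzled relative compared, had 1498 and 2518, a ratio of 0.74.

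Among the genes of Hippo, growth factor and RAS signalling, LATS2 had the lowest ratio. LATS2 is the kinase that holds back the growth coactivators YAP and TAZ. It had 1699 on the control array and 1191 on the miR-31 array (-0.51), 1480 and 1134 (-0.38) on a second probe set and 79.0 and 70.9 (-0.13) on another. All 3 kept probe sets lay below 0, while a dim one read 14.1 and 69.9 (1.51). LATS1, its paralogue, had 1383 and 1202 (-0.20).

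PPP2R2A, a regulatory subunit of the phosphatase PP2A, was lower on all 3 kept probe sets by small amounts, with 3468 and 2918 on the brightest (-0.25) and ratios of -0.15 and -0.08 on the others. PRKCE, the epsilon isoform of protein kinase C, had 410 and 340 (-0.26), and its second kept probe set had 90.4 and 43.0 (-0.85), passing the minimum through its control value. The other protein kinase C genes compared, PRKCA, PRKCD and PRKCH, had ratios of 0.00, 0.40 and 0.92. MET, the receptor of hepatocyte growth factor, had 4711 and 4768 (0.02), and its 3 dimmer probe sets had -0.27, 0.28 and -0.34. MET therefore showed no direction that its probe sets shared.

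JAZF1, a zinc finger cofactor of transcription, had 518 and 629 (0.27), and 362 and 371 (0.03) on its other probe set. NUMB, an inhibitor of Notch receptors, had 52.4 on the control array and 102 on the miR-31 array, a ratio of 0.78 from a control value under the level minimum. This probe set passed the minimum through its miR-31 value, so its direction adds little. A further 3 probe sets are annotated to NUMB together with an uncharacterised locus and were not counted. They had 512 and 443 (-0.20), 273 and 290 (0.08) and 22.1 and 63.1 (1.05). The brighter pair of them did not show the difference of the dim probe set, and NUMBL, the paralogue, had -0.52.

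Of the genes of NF-kB, stress and death signalling, only STK40 lay outside 1.5-fold. STK40 is a kinase-like protein described as a brake on NF-kB and p53 signalling. Its brighter probe set had 653 on the control array and 301 on the miR-31 array, a ratio of -1.08, and its other kept probe set had 120 and 176, a ratio of 0.50. The probe sets thus went opposite ways and were 1.57 apart, the widest gap between kept probe sets of any listed gene, and their mean was -0.29. With a pseudocount of 64 the brighter one had -0.97 and no longer reached 2-fold. Both are named _s_at.

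MAP3K14, the kinase that starts the non-canonical NF-kB pathway, had 444 and 526 (0.24), and its relative MAP3K8 had 53.3 and 86.1 (0.56). MAP3K8 passed the level minimum through its miR-31 value, so its direction adds little. TRADD, the adaptor of the TNF receptor, had 1743 and 2048 (0.23) and 1086 and 1337 (0.30), so its kept probe sets were 0.07 apart. MAP3K14 and TRADD were within the gauge of 0.336 on their brightest probe sets. HIF1AN, the hydroxylase that limits the activity of hypoxia-inducible factors, was level on all 3 probe sets, with ratios of -0.06, 0.01 and 0.07.

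CAMK2D, the delta isoform of calcium/calmodulin-dependent kinase II, had 4209 and 3876 (-0.12), and its other kept probe sets had -0.14, -0.31 and 0.13. TBXA2R, the thromboxane A2 receptor, gave a graded answer. Its 2 brightest probe sets were level, with 213 and 207 (-0.04) and 171 and 174 (0.02), while the dimmer ones had 118 and 180 (0.55) and 49.4 and 121 (1.07). The higher ratios came from probe sets named _x_at. The dimmest one had a control value under the level minimum and passed it through its miR-31 value, so its direction adds little.

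**Figure D3:**
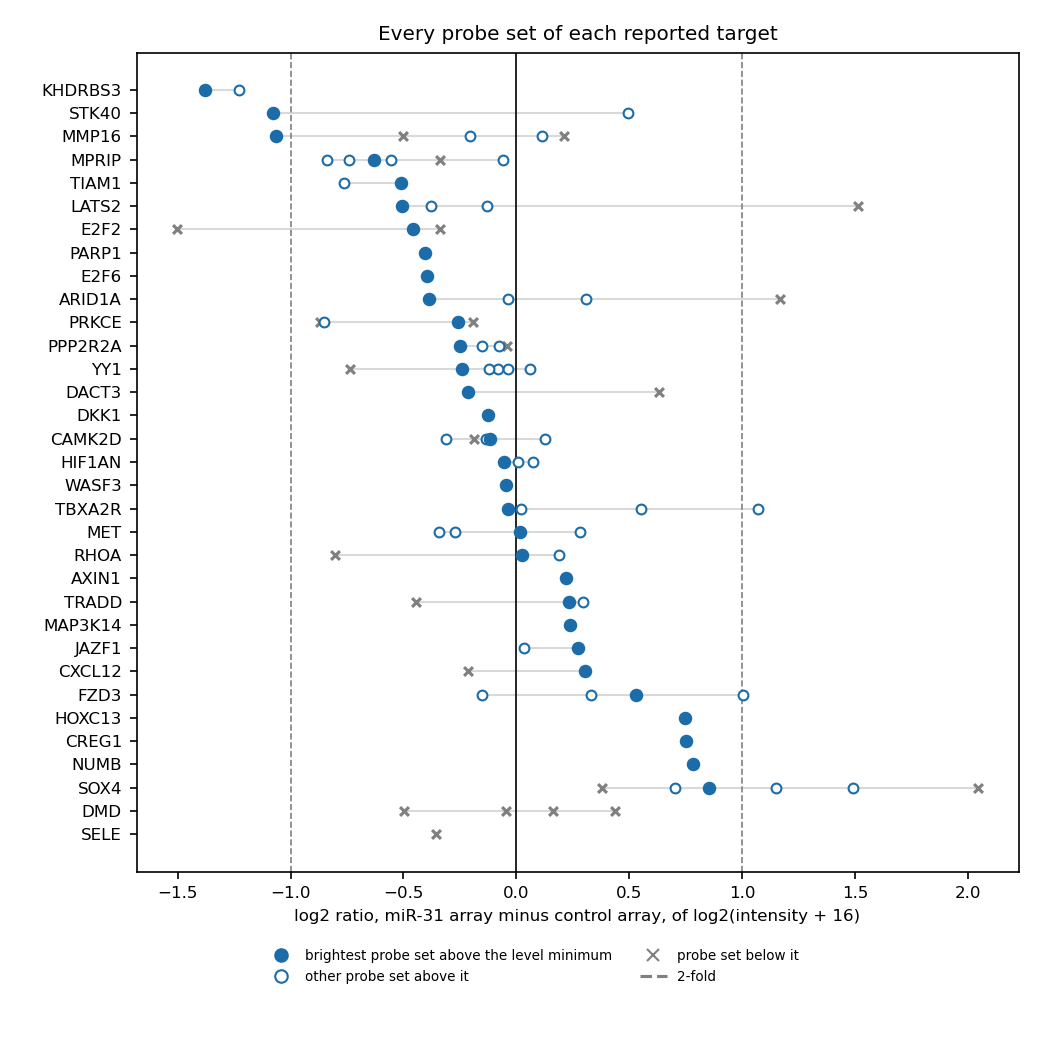
Log2 ratio (miR-31 array minus control array) of all 94 probe sets of the 33 genes, with the brightest kept probe set filled, other kept ones open and those under the level minimum as crosses; dashed lines mark 2-fold. The probe sets of KHDRBS3 lie together past the lower line and the kept ones of SOX4 all lie above 0. The kept probe sets of STK40, MMP16, FZD3 and TBXA2R spread over more than 1 log2 unit, and crosses widen the spread of some other genes.

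Of the 7 compared genes of chromatin, DNA repair and transcription, 5 had ratios between -0.46 and -0.24 on their brightest probe sets and 2 were higher. Over all genes 46.8% had a ratio below 0. E2F2, an activating E2F factor of the cell cycle, had 967 on the control array and 701 on the miR-31 array (-0.46). Its 2 probe sets under the level minimum read 50.2 and 36.4 (-0.34) and 50.2 and 7.35 (-1.50). PARP1, the enzyme that marks DNA breaks with poly(ADP-ribose), had 3610 and 2726 (-0.40) on its single probe set. E2F6, a repressor of the E2F family, had 1294 and 981 (-0.39), also from a single probe set.

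ARID1A, a DNA-binding subunit of the BAF chromatin remodelling complex, had 2924 and 2230 (-0.39) on its brightest probe set, -0.04 on the next and 0.31 on the dimmest kept one, while a probe set under the level minimum read 11.5 and 45.6 (1.17). YY1, a zinc finger transcription factor, had 9155 and 7743 (-0.24), and its 4 other kept probe sets lay between -0.12 and 0.06. The lower value of each was not shared by all of its probe sets. Among relatives, E2F1 had 0.70 on 1 probe set and -0.41 on another, E2F3 -0.11, E2F4 -0.45, E2F5 -0.25, ARID1B -0.16, ARID2 0.13 (4 probe sets between -0.34 and 0.95) and PARP2 0.03.

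SOX4, a transcription factor of progenitor and glioma cells, was the listed gene with the highest ratio. Its 4 kept probe sets had 3345 and 6048 (0.85), 1711 and 4834 (1.49), 502 and 827 (0.70), and 364 and 827 (1.15), all higher on the miR-31 array. The 2 probe sets under the level minimum read 44.8 and 63.1 (0.38) and 3.38 and 63.98 (2.05), values that cannot be told from background. The mean over kept probe sets was 1.05, past 2-fold, and 5.52% of genes had a ratio above that of the brightest one. The brightest one had 0.90 after quantile normalization and 0.89 after loess, and 0.30 under the largest constant shift used, -0.55 for every gene. SOX12, a close relative, had 143 and 169 (0.22).

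HOXC13, a homeobox factor of hair and nail, had 81.2 and 147 (0.74), among the dimmest genes, of which 7.29% were at least 2-fold higher. Its paralogue HOXD13 had 144 and 55.5, a ratio of -1.16, also from a single dim probe set. That probe set passed the level minimum through its control value. The neighbouring HOXC10 had 490 and 663 (0.42).

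Of the secreted, matrix, adhesion and structural genes, 3 of 5 were compared. MMP16, a membrane-bound matrix metalloprotease, had 292 on the control array and 131 on the miR-31 array, a ratio of -1.07. Its other kept probe sets had 78.3 and 86.0 (0.11) and 74.1 and 62.1 (-0.21), and those under the level minimum had 0.21 and -0.50. The mean over kept probe sets was -0.39, and with a pseudocount of 64 the brightest one had -0.87. The 2-fold difference of MMP16 therefore rested on 1 probe set, and MMP14, a relative, had 625 and 609 (-0.03), the lowest of its 4 kept probe sets, whose highest had 0.9995.

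CREG1, a secreted glycoprotein of the endosome and lysosome, had 820 and 1393 (0.75) on its single probe set, at a level where the robust SD was 0.34. CXCL12, the chemokine ligand of CXCR4, had 69.1 and 89.2 (0.31), and its other probe set read 13.5 and 9.36. ACKR3, the second receptor of CXCL12, had 58.5 and 81.9 (0.39). The kept values of CXCL12 and ACKR3 were close to the level minimum, which ACKR3 passed through its miR-31 value. The other probe set of CXCL12 was far under it.

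SELE and DMD had probe sets, but none reached the level minimum. SELE, the adhesion molecule E-selectin of activated endothelium, read 7.11 and 2.03. The 4 probe sets of DMD, which encodes dystrophin, read 46.9 and 69.0, 25.2 and 23.9, 17.9 and 21.9, and 19.5 and 9.17. No difference is read for either gene, since no detection calls were used and such values cannot be told from background. Of 4 endothelial markers, 1 (PECAM1) passed the level minimum, and the markers summed to 185 on the control array and 210 on the miR-31 array. Of the 4 immune markers with a probe set none passed, with sums of 59.6 and 142. Of the 4 fibroblast markers, 2 passed and went opposite ways, COL1A2 with 12349 and 21028 (0.77) and COL1A1 with 1630 and 1052 (-0.62). Of the 4 neuron markers, 3 passed. SYT1 had 345 and 705 (0.999), GAD1 182 and 229 (0.30) and SNAP25 135 and 83.6 (-0.60), so these also differed in direction. The part of other cells in any result was not tested. Of the 5 astroglial markers, GFAP (0.85), VIM (0.19), NES (-0.91) and CD44 (-0.24) were well above the minimum and went different ways, while S100B, at 38.1 and 50.8, was below it.

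The probe sets of a gene often disagreed in sign. Of the 19 listed genes with 2 or more kept probe sets, 10 had all of them on 1 side of 0, beside 56.0% of all such genes. MPRIP, TIAM1, LATS2, PPP2R2A, PRKCE and KHDRBS3 were lower on all kept probe sets, and RHOA, JAZF1, TRADD and SOX4 were higher on all. TIAM1 and PRKCE had 2 kept probe sets each, and the dimmer one passed the level minimum through its control value. Their agreement in sign therefore adds little to the count. Of the 3 genes past 2-fold, KHDRBS3 alone had all kept probe sets of 1 sign, while 83.7% of all genes past 2-fold with several kept probe sets did. For 4 of the 19 the ratios were more than 1 apart, beside 9.1% of all such genes. For TBXA2R this rested on a probe set that passed the level minimum through its miR-31 value. The median gap between the lowest and the highest probe set was 0.44, where it was 0.37 over all such genes. Counted by probe set, 40 of the 71 kept ones lay below 0, beside 45.3% of all kept probe sets, 4 were at least 2-fold lower (1.67% of all) and 4 at least 2-fold higher (3.58%). Of the 23 under the level minimum, 1 was at least 2-fold lower and 3 higher, and 9.15% and 8.98% of all such probe sets were.

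Paralogues and partner genes of the listed targets, 45 of 68 of them above the level minimum, had a median ratio of 0.03. Of these, 20 lay below 0 (44.4%) and 25 above, while 46.8% of all genes lay below 0. TRIB1, a pseudokinase related to STK40, had 1397 and 430 (-1.66). With HOXD13 it was 1 of 2 that were at least 2-fold lower, beside 1.58% of all genes. HOXD13 passed the level minimum through its control value, so its call adds little. None of the relatives and partners was at least 2-fold higher, beside 3.74% of all genes. For 19 of 26 listed targets the ratio was lower than that of the compared relative, or than the median of several, and the median gap was -0.31. Most of the 26 had only 1 compared relative, and some relatives are partners rather than paralogues. The 19 include RHOA, FZD3, MAP3K14 and CXCL12, whose own ratios were above 0. MAP3K14 and CXCL12 had 1 compared relative each, MAP3K8 and ACKR3. Both of these relatives passed the level minimum through their miR-31 values, so these comparisons add little to the count. No such count was made for other genes. The relatives were picked by hand and all values come from the same 2 arrays, so the count is a description.

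**Figure D4:**
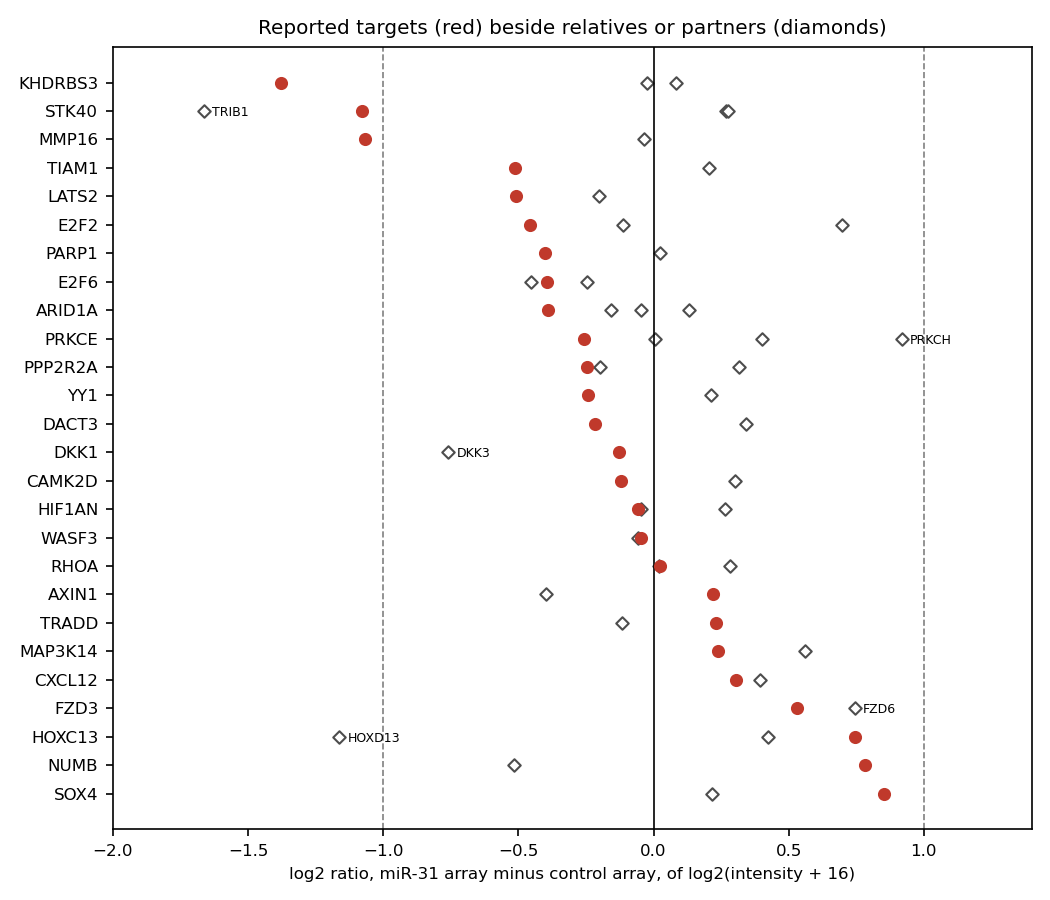
Log2 ratio (miR-31 array minus control array) of 26 reported targets (red circles) and of their compared relatives or partners (open diamonds); dashed lines mark 2-fold. KHDRBS3, MMP16 and TIAM1 lie left of all their diamonds, STK40 lies right of TRIB1, and SOX4, NUMB and HOXC13 lie to the right of theirs.

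The scale of the arrays bears on every gene near 0. The bacterial hybridisation controls had a median ratio of 0.19 over 18 probe sets and the poly-A spike-in controls 0.51 over 27, or 0.55 over the 24 without Trpn. Quantile normalization and loess, which move each gene by its own amount, left the sign of all 31 ratios as deposited, and the largest move was 0.16. Centring on controls subtracts 1 constant from every gene, so it can only turn ratios that lie between 0 and that constant. With the constant of 0.55 these were the 8 genes RHOA, MET, AXIN1, TRADD, MAP3K14, JAZF1, CXCL12 and FZD3, and 87.1% of all genes then had a ratio below 0. Centred on all poly-A controls, MPRIP, TIAM1 and LATS2 also passed 2-fold, at -1.14, -1.02 and -1.01, but the median over all genes then lay at -0.47.

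**Figure D5:**
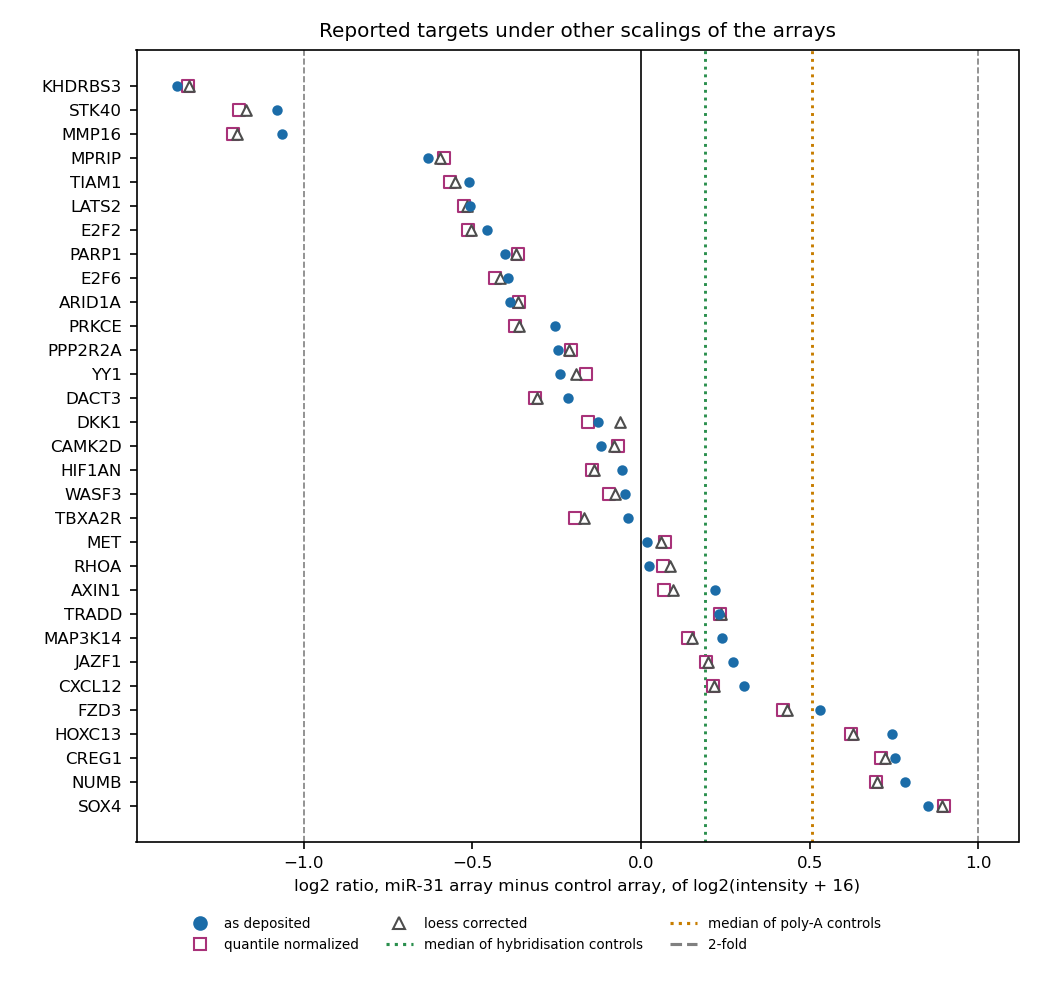
Log2 ratio (miR-31 array minus control array) of each of the 31 genes as deposited (blue circles), after quantile normalization (squares) and after loess (triangles); dashed lines mark 2-fold, and dotted lines the median ratios of the hybridisation (0.19) and poly-A (0.51) controls, which become 0 when ratios are centred on them. The 3 values of each gene lie within 0.16 of the deposited one, and KHDRBS3, STK40 and MMP16 lie left of the lower dashed line.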

How the data were processed

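Total RNA of U251 cells was labelled with a 3' IVT kit and hybridised to Affymetrix HG-U133_Plus_2 arrays, per the labels' protocols. The deposited values are linear intensities, 1 for each of 54675 probe sets on each array, and the authors' software is not stated in the sources at hand. The trimmed mean intensity, without the lowest and highest 2% of probe sets, was 500.1 on both arrays. Without the 62 control probe sets, 41091 had exactly 1 symbol in the annotation; 1801 had several and 11777, controls included, had none. The 33 symbols matched RefSeq by Entrez identifier.

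Log2 ratios were computed with a pseudocount of 16; the level minimum and the 2-fold threshold are described above, and every listed gene is named. The calculation was tested on simulated data. Alternatives were other scalings, pseudocounts of 1 and 64, other level filters, other rules for several probe sets and 1.5-fold. The genes, relatives and markers were chosen with earlier results of these data known. The number of arrays limits the precision. Python 3.11.15, numpy 2.4.6, pandas 2.3.3, statsmodels 0.14.6 and matplotlib 3.10.9 were used.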

Additional observations from a re-analysis of the deposited data

How the results depend on the processing

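No paired analysis was possible because there is a single array on each side, which also means that none can be omitted. The 3 genes at least 2-fold lower became 6 when ratios were centred on the poly-A controls and 7 without the Trpn controls, an alternative chosen after seeing the data. They became 1, KHDRBS3, with a pseudocount of 64, with the mean of probe sets and with each gene's highest probe set. On its highest probe set STK40 had 0.50 and MMP16 0.11, both of opposite sign. The 0 genes at least 2-fold higher became 1 (SOX4) with the mean of probe sets, 3 (SOX4, FZD3 and TBXA2R) with the highest probe set and 4 at 1.5-fold. The highest probe set of TBXA2R passed the level minimum through its miR-31 value, as did the probe set of NUMB, 1 of the 4 at 1.5-fold. The 19 of 31 genes below 0 became 12 with the highest probe set, where 34.6% of all genes were below 0. They became 26 on the poly-A controls and 27 without Trpn, where 85.3% and 87.1% of all genes were. The median of -0.12 changed sign to 0.13 with the highest probe set (all genes 0.16). It became -0.62 on the poly-A controls and -0.67 without Trpn, and that of the relatives, 0.03, became -0.48 and -0.53. These 2 centrings shift every gene by 1 constant. KHDRBS3 passed 2-fold under all 14 alternatives that recompute ratios, but several of them could not undo this call. The other level filters and the lowest probe set left its ratio at -1.38. Each centring subtracts a positive constant, which can only lower a negative ratio. Values of dim genes are limited by signal over background.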
